A study of Mus musculus with 2 samples.

Results

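The MHC class II antigen presentation genes were followed through cell classes, fibroblast clusters and both libraries of a single-cell RNA sequencing study of mouse pancreas. The 8 genes, all found among the 27998 genes counted, were chosen by name: Cd74, H2-Aa, H2-Ab1, H2-Eb1, H2-DMa, H2-DMb1, H2-DMb2 and Ciita. Both libraries came from Rosa26-mTmG;Fabp4-Cre mice, in which a cell that has ever expressed Cre from the Fabp4 promoter turns on a membrane GFP for good, so that GFP marks a history of Cre and not a cell type. The normal library held GFP-positive cells, labelled as pancreatic stellate cells, from healthy pancreata of mice aged 6 to 9 weeks. Cells of the tumour library were sorted on both GFP and podoplanin (PDPN, a surface protein of fibroblasts), labelled as cancer-associated fibroblasts (CAFs), and came from mice that received FC1245 pancreatic cancer cells in the pancreas at 8 weeks of age and were sampled 21 days later. Enzymes, gate and tissue state differed together between the 2 libraries, so their effects cannot be told apart. How many mice each library pooled is not given in the sources used here. With 1 library per group no test between groups was possible. All intervals below are 95% intervals for counting error only.

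MHC class II molecules carry peptides from the lysosome to the cell surface, where CD4+ T cells read them. H2-Aa and H2-Ab1 encode the α and β chain of I-A, and H2-Eb1 the β chain of I-E. CD74, the invariant chain, blocks the groove during transport, and H2-DM, made of H2-DMa with H2-DMb1 or H2-DMb2, helps to exchange the last invariant chain fragment for peptide. Ciita encodes the transactivator that is recruited to the X and Y boxes of class II promoters and is induced by interferon gamma outside professional antigen-presenting cells. B cells and dendritic cells express the genes constitutively and macrophages to a varying degree, and fibroblasts that express them have been described in pancreatic tumours as antigen-presenting CAFs, often with mesothelial genes.

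RefSeq start sites (GRCm38.p6) gave 6 promoters, each 250 bases before to 50 after a start, for 5 of the 8 genes. The 4 sequences below, 1 for each gene of the β chain pair of H2-DM and for H2-Aa and H2-Eb1, are shown because these genes were high and low together across cell classes while the H2-DM pair parted between B-like and macrophage-like cells. Capitals mark matches on either strand to ATTGG, the core of the Y box, and to CCNAGNNAC, the core of the X1 box.
H2-DMb1 (chr17:34152941-34153240, + strand): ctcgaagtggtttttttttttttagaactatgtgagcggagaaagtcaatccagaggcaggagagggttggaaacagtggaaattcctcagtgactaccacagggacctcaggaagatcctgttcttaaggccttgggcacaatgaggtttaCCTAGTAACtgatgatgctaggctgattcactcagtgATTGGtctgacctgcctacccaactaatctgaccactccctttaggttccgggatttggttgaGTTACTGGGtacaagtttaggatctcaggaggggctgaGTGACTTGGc
H2-DMb2 (chr17:34144999-34145298, + strand): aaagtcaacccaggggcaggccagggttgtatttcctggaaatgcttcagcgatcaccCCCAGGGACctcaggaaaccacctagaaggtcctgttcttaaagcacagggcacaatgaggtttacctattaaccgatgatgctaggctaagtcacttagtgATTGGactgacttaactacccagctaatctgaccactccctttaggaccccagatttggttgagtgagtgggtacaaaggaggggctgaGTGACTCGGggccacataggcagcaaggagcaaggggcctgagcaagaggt
H2-Aa (chr17:34287774-34288073, - strand): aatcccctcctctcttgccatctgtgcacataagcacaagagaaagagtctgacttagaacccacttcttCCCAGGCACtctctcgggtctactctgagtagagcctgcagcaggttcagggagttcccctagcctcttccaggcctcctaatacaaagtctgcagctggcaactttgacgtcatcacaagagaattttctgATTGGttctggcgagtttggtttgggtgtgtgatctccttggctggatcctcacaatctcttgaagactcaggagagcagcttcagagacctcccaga
H2-Eb1 (chr17:34305617-34305916, + strand): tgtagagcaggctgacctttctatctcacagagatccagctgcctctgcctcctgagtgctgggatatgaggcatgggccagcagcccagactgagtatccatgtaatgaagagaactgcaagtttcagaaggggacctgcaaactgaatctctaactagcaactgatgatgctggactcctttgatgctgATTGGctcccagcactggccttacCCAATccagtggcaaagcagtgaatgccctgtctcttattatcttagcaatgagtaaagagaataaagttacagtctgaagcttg
All 4 held ATTGG on the forward strand, starting 48 bases before the start in H2-Aa, 59 in H2-Eb1, 61 in H2-DMb1 and 90 in H2-DMb2. H2-DMb1 also held the X1 core as CCTAGTAAC, 98 bases before the start. H2-DMb2 and H2-Aa held an X1 match farther from their Y match, at 192 and 180 bases before the start. Of the 32851 promoters of the table, 37.4% held ATTGG, 17.3% the X1 core and 6.38% both, so a match is a description of the letters and not of binding.

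On chromosome 17 lie 6 of the genes, in build GRCm38. H2-DMa spans 34119541 to 34139101, H2-DMb2 34143307 to 34151555, H2-DMb1 34153072 to 34160230, H2-Ab1 34257689 to 34269419, H2-Eb1 34305867 to 34316674 and, on the reverse strand, H2-Aa 34282744 to 34287823. Cd74 lies on chromosome 18 at 60803848 to 60812652 and Ciita on chromosome 16 at 10480059 to 10528418. H2-Eb1 overlaps the antisense gene Gm20513, H2-DMa overlaps Brd2 and Ciita overlaps Dexi, and the strand setting of the counting is not given in the sources used here, so small counts of these 3 genes may hold reads of their neighbours. H2-DMb1 and H2-DMb2 are close copies, and reads that fit both could have been split or dropped.

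After filtering and removal of doublets, 4520 normal cells with a median of 7066 unique molecular identifiers (UMIs, counted transcripts) and 2520 tumour cells with a median of 10131 remained. The libraries shared 4 barcodes, 2 of them among analysed cells. Clusters were formed without the class II genes and named from other markers. The label of stellate cells or CAFs did not hold for all cells. In the normal library 1480 cells were fibroblast-like, 1393 macrophage-like or monocyte-like, 1353 endothelial-like, 146 pericyte-like or smooth muscle-like and 73 B-like. The tumour library held 2224 fibroblast-like cells, 76 B-like, 73 ductal-like or tumour epithelial-like, 72 lymphatic endothelial-like and 51 macrophage-like or monocyte-like cells. A further 21 normal cells formed a cluster led by Cd5l in which 9 of 10 macrophage markers and all 10 fibroblast markers were each present in at least 25% of cells, and they stayed unnamed. Levels are CPM, UMIs per 1000000 of the summed UMIs of a group of cells. UMIs come from the 3′ ends of transcripts and do not grow with length.

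Macrophage-like and B-like cells carried nearly all of the signal. Cd74, the invariant chain, stood at 6549 CPM in normal macrophage-like cells, 5338 in those of the tumour, 8844 in normal B-like cells and 8912 in those of the tumour. These 4 sums differed by less than 2-fold. Endothelial-like cells of the normal library followed at 198 CPM, pericyte-like cells at 63.3, and normal and tumour fibroblast-like cells at 26.8 and 16.7. The 73 ductal-like or tumour epithelial-like cells of the tumour held 32 Cd74 UMIs, a level between those of normal and tumour fibroblast-like cells. The 72 lymphatic endothelial-like cells of the tumour held 1 Cd74 UMI. Between the macrophage-like and the fibroblast-like cells of the normal library the gap in Cd74 was therefore over 2 orders of magnitude.

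**Figure D1:**
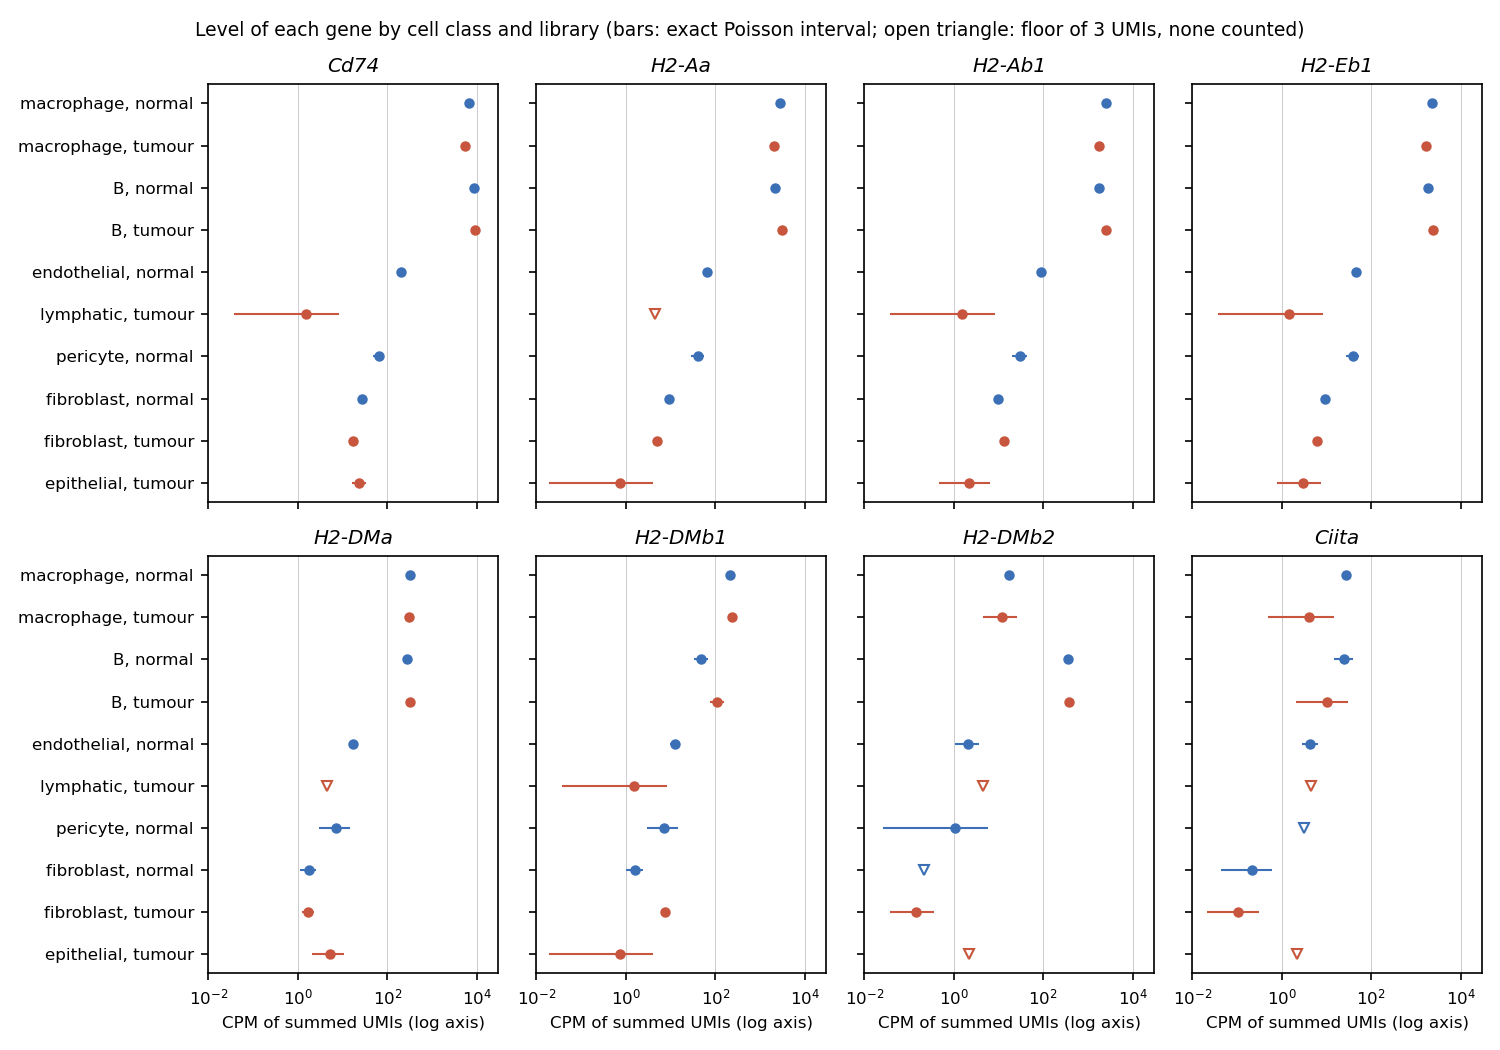
CPM of each of the 8 genes in each cell class with at least 20 cells, in the normal (blue) and tumour (red) library, on a log axis; bars are exact Poisson intervals and open triangles mark a floor of 3 UMIs where none was counted. Cd74 ran from 8912 CPM in tumour B-like cells to 1.49 in tumour lymphatic endothelial-like cells, and fibroblast-like cells of both libraries lay below the macrophage-like and B-like cells for all 8 genes. For Ciita this rests on 2 UMIs in tumour macrophage-like cells. The gap was smaller for H2-DMb1, at 7.35 CPM in tumour fibroblast-like and 48.5 in normal B-like cells.

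The chains of I-A and I-E were likewise highest in macrophage-like and B-like cells. H2-Aa reached 2833 CPM in normal and 2008 in tumour macrophage-like cells and 2130 and 3135 in B-like cells, against 64.7 in endothelial-like, 40.5 in pericyte-like, 9.23 in normal fibroblast-like and 5.05 in tumour fibroblast-like cells. H2-Ab1 and H2-Eb1 lay between 1681 and 2576 CPM in those 4 macrophage-like and B-like sums. In fibroblast-like cells H2-Ab1 stood at 9.79 CPM in normal and 13.2 in tumour, and H2-Eb1 at 9.51 and 6.20. H2-DMa was 276 to 326 CPM in the macrophage-like and B-like sums and under 2 CPM in fibroblast-like cells of both libraries. The pericyte-like values rest on 1 cell, which held 45 of the 61 Cd74 UMIs, 30 of 39 of H2-Aa, 20 of 29 of H2-Ab1 and 26 of 37 of H2-Eb1. Without it, a setting chosen after seeing the data, the 145 other pericyte-like cells held Cd74 at 16.8 CPM (9.60 to 27.3), H2-Aa and H2-Ab1 at 9.45 each (4.32 to 17.9) and H2-Eb1 at 11.6 (5.77 to 20.7). The normal fibroblast-like levels of these 4 genes lie within those intervals. H2-DMa at 6.30 CPM and H2-DMb1 at 7.35 were higher in these pericyte-like cells than in normal fibroblast-like cells, on 6 and 7 UMIs. In pericyte-like cells the macrophage genes C1qa, C1qb, C1qc and Lyz2 stood at 0.878% to 1.49% of the macrophage-like level of that library, and the part of this in the result was not tested.

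The β chain of H2-DM changed with the cell class. Normal B-like cells held 359 CPM of H2-DMb2 and 48.5 of H2-DMb1, and tumour B-like cells 381 and 110. Normal macrophage-like cells held 17.0 CPM of H2-DMb2 and 213 of H2-DMb1, and tumour macrophage-like cells 12.0 and 240. The count of H2-DMb2 UMIs per H2-DMb1 UMI was 7.39 (5.13 to 11.0) in normal B-like cells and 0.0797 (0.0688 to 0.0920) in normal macrophage-like cells, and the intervals lie far apart. In the tumour the same ratios were 3.47 (2.32 to 5.31) and 0.0500 (0.0180 to 0.112). The class called B-like in the tumour was not pure. Its 6 B cell markers summed to 3517 CPM, against 18668 in the normal library, its T cell or NK cell markers to 1102 against 75.0, and its 6 neutrophil markers to 31444 against 1.47. Of its 9156 neutrophil marker UMIs 9153 lay in 1 cell, which held no UMI of the class II genes. Without that cell, a setting chosen after seeing the data, Cd74 stood at 9592 CPM, H2-DMb2 at 410.3 and H2-DMb1 at 118, and the neutrophil markers at 11.1. A Cd74 UMI was present in 72.4% of tumour B-like cells against 97.3% of normal ones, and the part of the T cell or NK cell markers in these values was not tested. Among normal macrophage-like cells, 46.8% of those in the cluster led by Mmp12 held an H2-DMb2 UMI, at 134 CPM, beside 754 CPM of H2-DMb1. In the other 3 macrophage-like clusters H2-DMb2 stayed at or under 3.79 CPM.

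**Figure D2:**
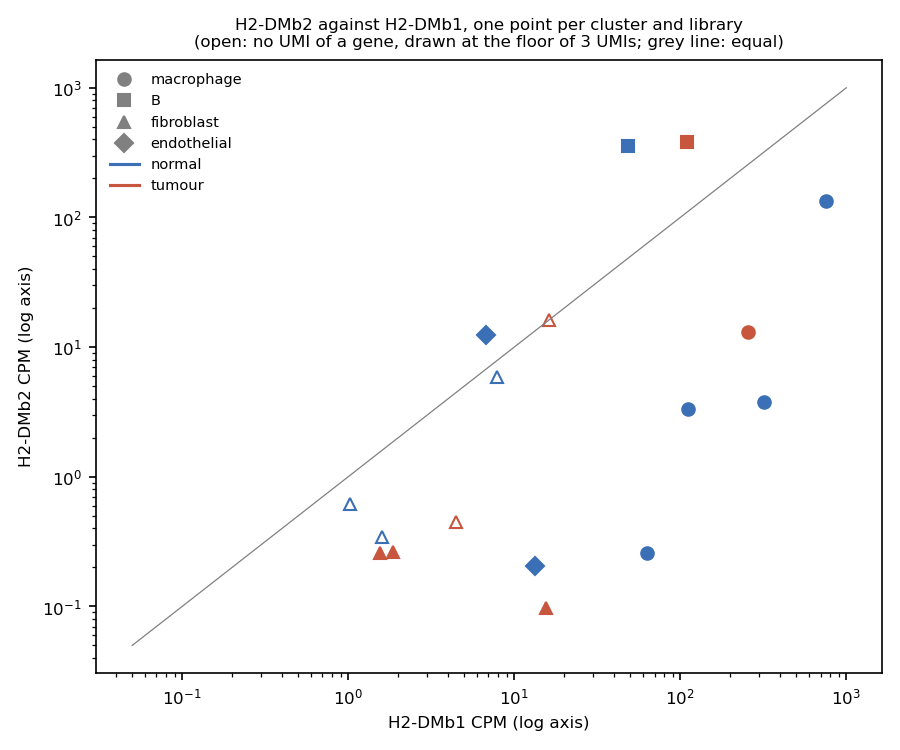
H2-DMb2 against H2-DMb1 in CPM, 1 point per cluster of the 4 classes shown (blue normal, red tumour) on log axes; open symbols mark clusters without a UMI of a gene, drawn at a floor of 3 UMIs, and the grey line marks equal levels. The B-like clusters lie above the line, at 359 and 381 CPM of H2-DMb2, and the macrophage-like clusters below it.

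The pair also parted between endothelial-like clusters. The larger cluster, led by Car4 (1061 cells), held 65 UMIs of H2-DMb1 and 1 of H2-DMb2, and the cluster led by Sema3g (292 cells) held 6 and 11, all 11 of them in 2 cells. The B cell gene Cd79a stood at 31.4 CPM in the Sema3g cluster and at 2.04 in the Car4 cluster, and its part in the result was not tested. Ciita was counted 25 times in the Car4 cluster, 5.11 CPM, and not at all in the Sema3g cluster or in pericyte-like cells. In endothelial-like cells as a whole Cd74 stood at 3.03% of the macrophage-like level of that library, H2-Ab1 at 3.49% and Ciita at 15.7%, while the macrophage genes C1qa, C1qb, C1qc and Lyz2 stood at 0.469% to 0.681%.

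Ciita, the transactivator, was scarce in every class. Normal macrophage-like cells held 331 UMIs, 27.5 CPM, and normal B-like cells 17 UMIs. Across the 4 macrophage-like clusters of the normal library it ran from 6.69 CPM in the cluster led by Vsig4 through 21.3 in Cd209d and 45.4 in Cx3cr1 to 72.0 in Mmp12. Cd74 had the same order, at 1694, 4760, 10856 and 17762 CPM. The Mmp12 cluster, with the inflammatory cytokine gene Il1b among its top genes, was highest for both, with a Ciita UMI in 49.2% of its cells and a Cd74 UMI in 98.4%. Its dendritic cell marker Batf3 stood at 258 CPM, while Flt3, Xcr1 and Clec9a, 3 of the 8 dendritic cell markers, were at 0.

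Tumour macrophage-like cells were called lower in 1 of the 7 genes that reached 20 CPM. A gene was called where tumour and normal sums differed at least 2-fold with an interval that excluded 1. Over all 6278 genes that reached 20 CPM in this class, 27.2% were called, 14.9% as lower in tumour, so 1 of 7 was near the background. The called gene was Ciita, with 331 UMIs at 27.5 CPM in normal and 2 UMIs at 3.99 CPM in tumour, a ratio of 0.145 (0.0175 to 0.528). Cd74 (0.815), H2-Aa (0.709), H2-Ab1 (0.712) and H2-Eb1 (0.737) were lower by less than 2-fold, and H2-DMa (0.936) and H2-DMb1 (1.13) had intervals that held 1. The median log2 ratio was -0.44 over the 7 genes and -0.12 over all 6278. The 2 libraries filled this class from different clusters: 46 of 51 tumour cells belonged to the Mmp12 cluster, against 124 of 1393 normal cells. Within the Mmp12 cluster the sum of the 8 genes was 11682 CPM in tumour and 41238 in normal, a ratio of 0.283 (0.275 to 0.291). Ratios of the single genes ran from 0.0606 to 0.338. How many of all genes differed as much within this cluster was not counted, so these ratios are not read as apart from other genes. Ciita stood there at 4.36 CPM in tumour, on 2 UMIs, and 72.0 in normal, a ratio of 0.0606 (0.00723 to 0.225). Batf3 also stood lower, at 30.5 against 258 CPM, and the 8 dendritic cell markers in sum at 126 against 391 CPM. The 6 neutrophil markers stood at 8006 CPM in tumour and 82.6 in normal macrophage-like cells. In tumour 3986 of their 4011 UMIs lay in 9 cells, all of the Mmp12 cluster. Without cells with at least 10 UMIs of these markers, left out after seeing the data, the ratio of the 8 genes in sum went from 0.771 to 0.836 (0.814 to 0.859) in macrophage-like cells, and the Mmp12 sums were 12777 CPM in tumour and 41321 in normal. Ciita then stood at a ratio of 0.160 (0.0194 to 0.584) in the class. Whether the 2 libraries hold the same kinds of cells in that cluster was not tested.

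In normal fibroblast-like cells the genes in sum stood near the level in pericyte-like cells once 1 pericyte-like cell was left out. Pericyte-like cells were taken to lack the genes, and neither this nor the source of the UMIs was tested. In fibroblast-like cells the genes made up 837 UMIs, 59.0 CPM, and ran up to 156 CPM over the other settings, with the Cd5l cluster kept. Pericyte-like cells held 181 UMIs, 188 CPM, of which 122 lay in the 1 cell named above. Without that cell they held 62.0 CPM (47.2 to 79.9), and with it looser cell filters gave 64.3 CPM and stricter ones 321. After each cell was thinned to 2000 UMIs, 8.08% (6.74% to 9.60%) of normal fibroblast-like cells held a UMI of any of the 8 genes, against 14.5% (9.08% to 21.5%) of pericyte-like and 78.9% of macrophage-like cells. Median depths before thinning were 9019, 6582 and 8189 UMIs, and the unthinned shares 30.9%, 31.5% and 92.5%. Thinning left out 20 of the 1480 fibroblast-like cells. Relative to the macrophage-like cells of the same library, Cd74 in fibroblast-like cells stood at 0.410%, H2-Aa at 0.326%, H2-Ab1 at 0.393% and H2-Eb1 at 0.417%. The macrophage genes C1qa (0.309%), C1qb (0.369%), C1qc (0.324%) and Lyz2 (0.354%) stood at nearly the same fraction. H2-DMa (0.551%) and H2-DMb1 (0.762%) stood somewhat higher, on 25 and 23 UMIs. A UMI of Lyz2, C1qa, C1qb, C1qc or of the B cell genes Cd79a, Cd79b or Ms4a1 was present in 45.5% of these fibroblast-like cells. Of the 381 Cd74 UMIs of the class, 78 lay in 1 cell and 54 in another, both rich in the antibody gene Jchain. Without the first of these cells Cd74 stood at 21.4 CPM, so its fraction of the macrophage-like level depends on them.

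Tumour fibroblast-like cells held 1449 UMIs of the 8 genes, 50.5 CPM (47.9 to 53.2). The 72 lymphatic endothelial-like cells of that library held 4 UMIs, 5.96 CPM (1.62 to 15.3), so the levels of these 2 classes lie apart. The 73 ductal-like or tumour epithelial-like cells held more than the lymphatic ones, with 32 UMIs of Cd74 alone. In CPM their Cd74 stood above that of the tumour fibroblast-like cells, which thus do not lie above every other non-immune class. Tumour fibroblast-like cells outside the Lrrc15 cluster, described below, held the 8 genes at 19.1 CPM. Before thinning 15.1% of those 73 cells held a UMI of any of the genes, at a median depth of 16420 UMIs. After thinning, 4.91% (4.03% to 5.91%) of tumour fibroblast-like cells held a UMI of any of the genes. Of 69 lymphatic endothelial-like cells 0 did, which allows a share of up to 4.35% at the floor of 3 counts, not an exact bound. The lower bound of the thinned share lies under that limit. The unthinned shares were 18.4% (16.8% to 20.1%) and 4.17% (0.868% to 11.7%), at median depths of 10432 and 8454 UMIs. Only 7.69% held a UMI of the 7 macrophage and B cell genes named above, against 45.5% in normal. Cd74 stood at 16.7 CPM against 26.8 in normal, a ratio of 0.622 (0.542 to 0.713), H2-Aa at a ratio of 0.547 (0.429 to 0.699) and H2-Eb1 at 0.652 (0.519 to 0.822). H2-Ab1 went the other way, with 380 UMIs in tumour and 139 in normal and a ratio of 1.35 (1.11 to 1.65). H2-DMb1 stood 4.54-fold (2.94 to 7.32) higher, with 211 UMIs at 7.35 CPM in tumour and 23 UMIs at 1.62 CPM in normal. H2-DMa was at 1.76 CPM in normal and 1.71 in tumour, H2-DMb2 had 0 and 4 UMIs, and Ciita 3 and 3, a ratio of 0.495 (0.0662 to 3.69).

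At 20 CPM in either sum 1 of the 8 genes, Cd74, could be called in fibroblast-like cells and 0 were called, where 18.9% of all 6811 genes were called, 7.66% as higher in tumour. At 50 CPM none of the 8 could be called, against a background of 20.2%, 9.37% as higher. At 5 CPM 5 of the 8 could be called and 1 was, H2-DMb1, among a background of 22.3% called and 7.92% called higher in tumour. With so few of the 8 genes open to a call, their share is not read as apart from that of all genes. The median log2 ratio of all 6811 genes was -0.25, and TMM scaling moved all log2 ratios by 0.32, which takes the ratio of the 8 genes in sum from 0.856 (0.786 to 0.933) to 1.07. That sum therefore has no stable direction. Different clusters filled the class in the 2 libraries. In normal, 1069 cells lay in the cluster led by Tenm4, 369 in Efhd1 and 38 in Hp. In tumour, 664 lay in Thbs4, 643 in Hp, 496 in Apod, 387 in Lrrc15 and 28 in Tenm4.

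The genes were concentrated in 1 tumour cluster. The cluster led by Lrrc15, a marker of myofibroblastic CAFs, with Tnc, Cthrc1 and Inhba among its top genes, held 17.4% of the tumour fibroblast-like cells and 36.0% of their UMIs, but 75.8% of the UMIs of the 8 genes. Their sum stood at 106 CPM there, 22.7 in Thbs4, 22.2 in Hp and 7.99 in Apod, and the 28 tumour cells of the Tenm4 cluster held none. H2-DMb1 stood at 15.6 CPM in the Lrrc15 cluster and 2.72 in the other tumour fibroblast-like cells, 5.72-fold (4.14 to 8.02) apart. H2-Ab1 stood at 29.3 against 4.19 CPM, 6.99-fold (5.43 to 9.10) apart, and Cd74 at 37.3 against 5.06 CPM, 7.37-fold (5.87 to 9.35) apart. H2-DMa, at 2.42 against 1.31 CPM, differed by less than 2-fold. Cells of the Lrrc15 cluster were deeper, with a median of 26389 UMIs. After thinning, 10.9% (7.96% to 14.4%) of them held a UMI of any of the genes, against 5.07% in Hp, 3.68% in Thbs4 and 1.74% in Apod, where unthinned shares were 52.5%, 14.2%, 12.8% and 6.05%. Without the Lrrc15 cluster the tumour to normal ratio of the sum was 0.324 and not 0.856, that of H2-Ab1 0.428 and not 1.35, and that of H2-DMb1 1.68 (1.01 to 2.89) and not 4.54. In the Hp cluster, which both libraries filled, the sum stood at 22.2 CPM in tumour and 172 in normal, a ratio of 0.129 (0.0983 to 0.170), on 88 UMIs of 38 normal cells, of which 2 cells held 46 and 11.

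**Figure D3:**
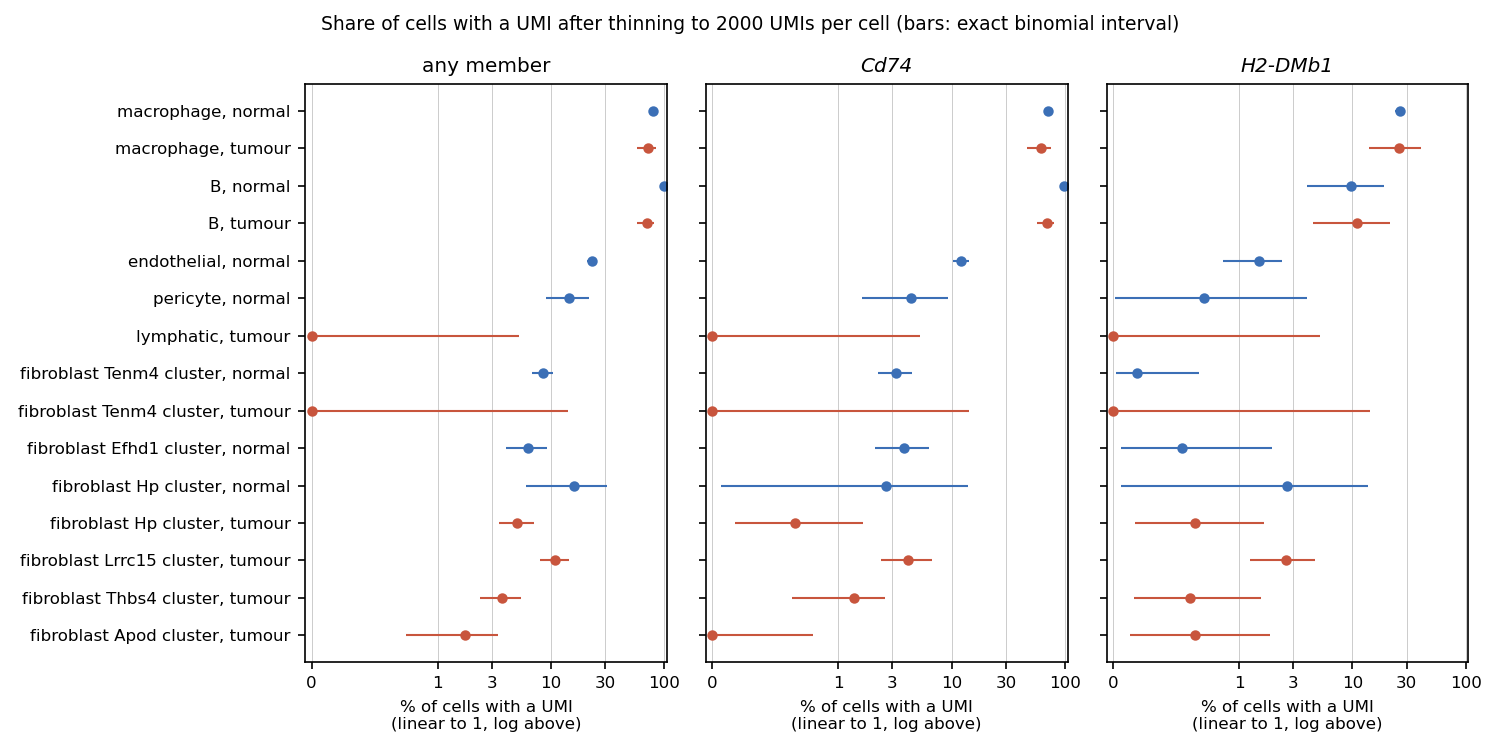
Share of cells with a UMI of any of the 8 genes, of Cd74 and of H2-DMb1 after thinning each cell to 2000 UMIs, by class or fibroblast cluster (blue normal, red tumour), with exact binomial intervals; the axis is linear to 1% and logarithmic above. Among tumour fibroblast clusters the Lrrc15 cluster is highest in each panel, at 10.9%, 4.15% and 2.59%.

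Summed over all its cells, the Lrrc15 cluster held H2-Ab1 and H2-DMb1 in another proportion to Cd74 than the macrophage-like or B-like cells of the same library. It held 0.785 (0.673 to 0.915) H2-Ab1 UMIs per Cd74 UMI, against 0.332 (0.307 to 0.358) in tumour macrophage-like and 0.289 (0.266 to 0.314) in tumour B-like cells. It held 0.417 (0.345 to 0.503) H2-DMb1 UMIs per Cd74 UMI, against 0.0449 (0.0371 to 0.0539) and 0.0123 (0.00842 to 0.0175). H2-Aa went the other way, at 0.249 (0.197 to 0.312) against 0.376 (0.350 to 0.405) and 0.352 (0.326 to 0.380). H2-Eb1, at 0.321 (0.260 to 0.394), was close to the 0.315 of tumour macrophage-like cells, and so was H2-DMa, at 0.0648 (0.0414 to 0.0971) against 0.0561. These ratios pool 387 cells, and Cd74 lay in fewer of them than H2-Ab1 or H2-DMb1. The cell with the most class II UMIs held 98 of Cd74, 19 of H2-Ab1 and 5 of H2-DMb1, so the pooled ratios do not describe every cell. Normal fibroblast-like cells held 0.365 (0.298 to 0.444) H2-Ab1 UMIs per Cd74 UMI, close to the 0.380 of normal macrophage-like cells, and 0.0604 (0.0378 to 0.0919) of H2-DMb1, above the 0.0325 there. That H2-Ab1 ratio leans on 2 cells rich in Jchain, a gene of antibody-secreting cells. They held 78 and 54 of the 381 Cd74 UMIs but 2 and 0 of the 139 of H2-Ab1, so without them the ratio would be higher. The Thbs4 cluster, with 0.329 (0.198 to 0.528) H2-Ab1 UMIs per Cd74 UMI, was close to tumour macrophage-like cells in that ratio. Its H2-DMb1 ratio, 0.192 (0.0999 to 0.343), was above the 0.0449 there. The tumour Hp cluster also stood apart, with 51 H2-Ab1 UMIs and 30 of H2-DMb1 to 16 of Cd74. In the Apod cluster 6 H2-DMb1 UMIs stood beside 4 of Cd74. A higher H2-DMb1 ratio than in tumour macrophage-like cells was therefore not particular to the Lrrc15 cluster. The macrophage genes C1qa, C1qb, C1qc and Lyz2 were at 0.0104% to 0.0612% of the tumour macrophage-like level in the Lrrc15 cluster, where Cd74 was at 0.700%, H2-Ab1 at 1.65% and H2-DMb1 at 6.50%. Of the 10 macrophage markers 3 were at 0 there, of the 7 T cell or NK cell markers 6, and the 6 B cell markers summed to 2.90 CPM. In the 347 cells of the Lrrc15 cluster with no UMI of the 7 macrophage and B cell genes, H2-DMb1 stood at 15.8 CPM and was present in 27.7% of cells, against 27.6% in the whole cluster.

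**Figure D4:**
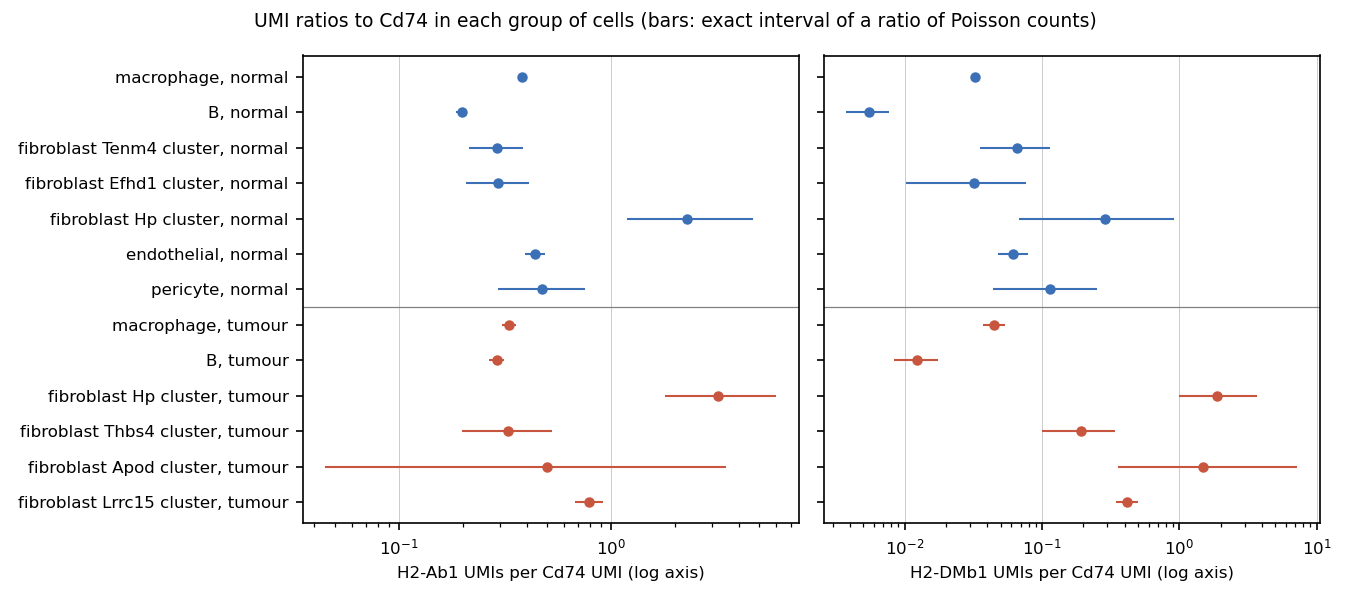
UMIs of H2-Ab1 and of H2-DMb1 per Cd74 UMI in groups of cells of the normal (blue) and tumour (red) library, on log axes with exact intervals of a ratio of Poisson counts. The normal Tenm4 and Efhd1 clusters lie near the macrophage-like cells of their library for H2-Ab1 and the normal Hp cluster, on 14 Cd74 UMIs, does not, while the tumour Lrrc15 cluster lies to the right of both tumour immune classes, at 0.785 and 0.417. In the Tenm4 and Efhd1 clusters 1 Jchain-rich cell each held 54 of 211 and 78 of 156 Cd74 UMIs.

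Few cells held most of these UMIs. In the Lrrc15 cluster 16 of 387 cells had at least 10 UMIs of the 8 genes, and they held 671 of its 1098, or 61.1%. The highest had 148, of which 98 were Cd74, 19 H2-Ab1, 15 H2-Eb1 and 10 H2-Aa. Among the 16, 12 held all of Cd74, H2-Aa, H2-Ab1 and H2-Eb1. The genes made up 0.0347% to 0.536% of a cell's UMIs, with a median of 0.135%. Both Ciita UMIs of the cluster lay in these 16 cells. Cd74 was the more concentrated gene, with 63.0% of its UMIs in its 5 highest cells, against 23.1% for H2-Ab1 and 14.3% for H2-DMb1. Even in the 371 cells with fewer than 10 UMIs of the genes, H2-DMb1 was present in 25.9% and H2-Ab1 in 25.9%, while Cd74 was present in 8.63%.

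Most of the tumour cells with at least 10 UMIs held no UMI of the 7 macrophage and B cell genes. Of the 16 cells, 14 held none, and those 14 held 545 UMIs of the class II genes. The other 2 held 10 and 11 UMIs of the macrophage and B cell genes. Of the other marker lists, the 7 T cell or NK cell markers had no UMI in the 16 cells, and the 6 neutrophil markers had 3 UMIs in 1 cell. The 8 dendritic cell markers had 50 UMIs in 13 cells, at 122 CPM against 125 in the rest of the cluster. The 9 pericyte or smooth muscle markers had 202 UMIs in all 16, at 492 against 230 CPM. The 6 ductal markers had 18 UMIs in 3 cells, 12 of them in 1, and the 8 endothelial markers had a UMI in 12 cells, at 80.3 CPM against 36.6 in the rest of the cluster. The part of these in the result was not tested. Median depth was 26073 UMIs in the 16 cells and 26389 in the rest of the cluster, and the median Scrublet score, which rises with the likeness of a cell to simulated doublets, was 0.0311 and 0.0291. In the normal library 6 fibroblast-like cells had at least 10 UMIs of the genes, and 5 of them held macrophage or B cell UMIs. Their median score was 0.0926 against 0.0162 in the rest and their median depth 14716 against 9015 UMIs. The 2 highest, with 80 and 54 UMIs of the class II genes, held 1089 and 1735 UMIs of Jchain, the joining chain of secreted antibodies. The only one without such UMIs, a cell of the Hp cluster, held 46 class II UMIs, 16 of them from H2-Ab1.

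**Figure D5:**
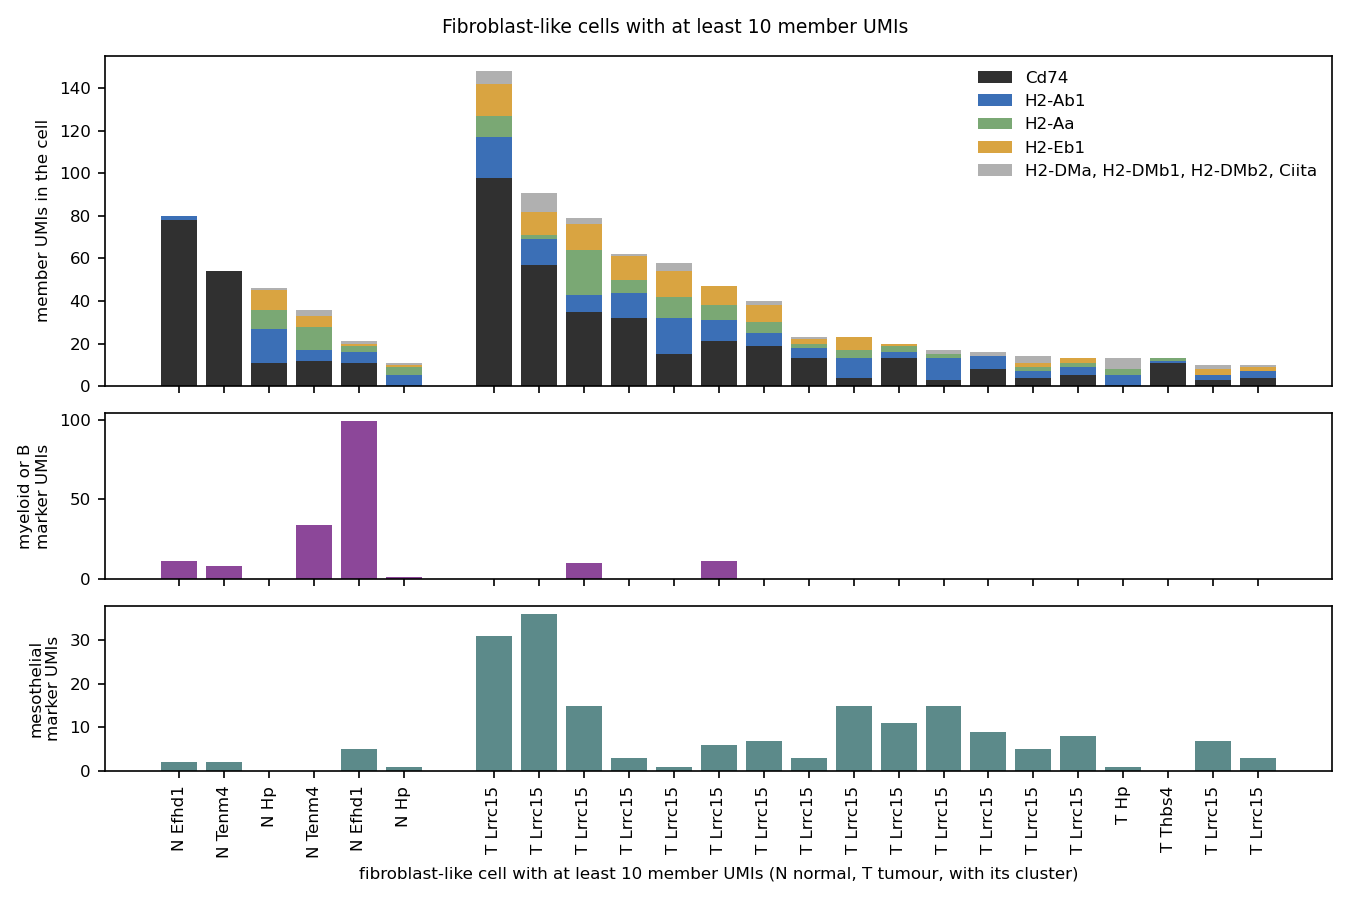
Each fibroblast-like cell with at least 10 UMIs of the 8 genes, 6 normal cells on the left and 18 tumour cells on the right, with its UMIs of the class II genes by gene (top), of the 7 macrophage and B cell genes (middle) and of 8 mesothelial markers (bottom). Macrophage or B cell UMIs were present in 5 of 6 cells on the left and in 2 of 18 on the right.

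The 16 cells were set beside the other 371 of the Lrrc15 cluster in other genes. Both the cut of 10 UMIs and these genes were chosen after values were seen. Wt1, a transcription factor of mesothelium and of some fibroblasts, was present in all 16, at 343 against 136 CPM. Of the other 371 cells 80.9% held a UMI of the 8 mesothelial markers, of which Wt1 is 1. Upk3b and Lrrn4, both mesothelial genes, were found together in 3 of the 16 cells and stood at 26.8 and 24.3 CPM, where the other 371 cells held 2 UMIs of each. Those 3 cells held 250 of the 671 class II UMIs. Msln, another mesothelial marker, had no UMI in either group. The interferon response factor Irf1 stood at 209 against 44.0 CPM, but 41 of its 86 UMIs came from 1 cell. The acute phase gene Saa3 was present in 62.5% against 13.2%. Genes of the myofibroblastic programme were lower: Lrrc15 itself was present in 2 of 16 cells and stood at 9.74 against 152 CPM, Cthrc1 at 70.6 against 427 CPM and Col1a1 at 5134 against 13987 CPM. Dcn, which encodes the matrix proteoglycan decorin, was present in all 16 cells, at 4971 against 2930 CPM. The cells are from 1 library and are not replicates, so these are values without a test. In the normal library the 16 cells of the mesothelial-like cluster held 59 UMIs of the class II genes, 274 CPM, in 87.5% of cells, and 43.8% (19.8% to 70.1%) held one after thinning, at a median depth of 15525 UMIs. H2-Aa was the highest there with 14 UMIs, and Cd74 had 12.

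The other genes of the pathway were counted by list, where 18.9% of all 6811 genes were called between tumour and normal fibroblast-like cells, 7.66% as higher in tumour. The lists are short, and with 7 genes or fewer tested in each, none of their counts is read as apart from that share. Of 6 genes of lysosomal processing 5 reached 20 CPM. Lgmn, the protease legumain, was called higher at 154 against 24.3 CPM, a ratio of 6.35 (5.69 to 7.10), and Ifi30, the lysosomal thiol reductase GILT, lower at 77.1 against 198 CPM. Ctsl, the cathepsin that trims the invariant chain in thymic epithelium, stood at 1318 against 964 CPM. Ctss, the cathepsin that does so in macrophages and B cells, stood at 0.767 CPM in tumour fibroblast-like cells. None of 7 promoter factors, such as Rfx5 and Nfyb, was called, and 4 of them reached 20 CPM. Of 8 genes of interferon gamma signalling 7 reached 20 CPM and 1 was called, the receptor chain Ifngr1, lower at 110 against 286 CPM. The ligand Ifng had 1 UMI in normal and 0 in tumour. None of the 6 costimulation and checkpoint ligands reached 20 CPM, and Cd80 and Cd86, which deliver the second signal to T cells, stood under 1 CPM in both libraries. Of the 3 genes of class II turnover 1 reached 20 CPM and 0 were called. Among 6 genes described with class II in antigen-presenting fibroblasts only Saa3 reached 20 CPM, and it was called higher, at 163 against 3.80 CPM. Saa3 was highest in the Hp cluster, at 418 CPM, where the class II genes summed to 22.2 CPM, and stood at 154 CPM in the Lrrc15 cluster. In the Lrrc15 cluster Irf1 (50.6 CPM) and Ifngr1 (53.5 CPM) stood lower than in the Apod cluster (221 and 216 CPM), which held the fewest class II UMIs of the 4 larger tumour clusters.

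In tumour macrophage-like cells 5 of the 6 costimulation and checkpoint ligands reached 20 CPM, and 3 were called higher, where 12.3% of all genes were. These were Cd80 at 67.9 CPM, 3.39-fold (2.29 to 4.87) above normal, Cd274 (PD-L1) at 212 against 6.98 and Pdcd1lg2 (PD-L2) with 16 UMIs against 1. Cd40 was called lower, at 16.0 against 42.6 CPM on 8 UMIs. Of the 6 genes of lysosomal processing Ctsl and Ifi30 were called higher. As above, the class was filled from different clusters, with 46 of 51 tumour and 124 of 1393 normal cells in the Mmp12 cluster. The part of this in these calls was not tested. Without the cells with at least 10 neutrophil marker UMIs, Cd80 stood at 66.2 CPM in tumour, Cd274 at 201 and Cd40 at 17.6, and Pdcd1lg2 had 11 UMIs. Over the 10 class sums of at least 20 cells, the genes other than the 8 whose log2(CPM + 1) followed the mean of the 8 most closely, among 6520 genes, were Syk (Pearson r = 0.990), Coro1a (0.990), Ptprc (0.988), Cd83 (0.987) and Cd52 (0.986). All 5 had a sum at 0 CPM, and the sums share 2 libraries, so the correlation is a description of the contrast between immune and other cells. In the Lrrc15 cluster Ptprc, which marks leukocytes as CD45, had 2 UMIs, both in 1 of the 16 cells with at least 10 class II UMIs.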

How the data were processed

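Single-cell 3′ RNA sequencing was done on 1 normal and 1 tumour library. The authors deposited raw UMI counts per gene and barcode, made with Cell Ranger 3.1.0 on mm10, per the submitters' processing notes. The strand setting and the barcode calling are not given in the sources used here. The files held 5437 normal barcodes (36675424 UMIs) and 2942 tumour barcodes (33285044 UMIs). A cell needed 500 genes, 1000 UMIs and a mitochondrial share of no more than 10%, which left 4616 and 2573 cells. Scrublet (scanpy 1.11.5) then marked 96 normal cells, 2.08%, which were removed. It marked only 3 tumour cells, 0.117%, so the 53 of highest score, 2.06%, were removed instead, after an expected rate of 0.8% per 1000 cells.

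Counts were scaled to 10000 per cell, and 2000 variable genes without 11 class II genes, 30 principal components and 15 neighbours gave Leiden clusters at resolution 0.5 (igraph 0.11.9). A cluster took the class with the highest mean share of cells over its markers, given at least 3 markers in at least 25% of cells. A non-immune cluster stayed unnamed where at least 3 markers of an immune class were each present in at least 50% of cells, a rule set after the clusters were seen. Of 162 list and marker genes 159 matched.

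UMIs were summed per class or cluster of at least 20 cells and given as CPM with exact Poisson intervals. Below that size are the normal mesothelial-like cluster and the high cells of the Lrrc15 cluster, 16 cells each. Ratios have exact intervals of 2 Poisson counts and shares have Clopper-Pearson intervals (scipy 1.17.1), all at 95%. A count of 0 allows up to 3 counts. UMIs of 1 library are not independent animals, so no interval covers differences between mice. No test between groups was made. Thinning drew 2000 UMIs per cell. TMM and median of ratios scaling used edgeR 4.0.16 and R 4.3.3. The calling step was tested on simulated data.

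The named genes are the 8 genes, the genes of the pathway lists, class markers and the 5 other genes with the most similar pattern over class sums, among genes with at least 50 CPM in 1 sum. The genes compared between high and low cells of the Lrrc15 cluster and the cells with at least 10 UMIs were chosen after values were seen. The 8 genes and all lists were chosen with earlier results of these data known. Promoters came from RefSeq (GRCm38.p6) and positions from the GRCm38 annotation. Alternatives were other cell filters, doublets kept, resolution 1, the class II genes kept in clustering, other scalings, per-cell means, other depths of thinning and cell sets left out.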

Additional observations from a re-analysis of the deposited data

Results flagged for a closer look

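H2-Ab1 moved in opposite directions in the classes that both libraries held in number. Its tumour to normal ratio was 1.35 (1.11 to 1.65) in fibroblast-like cells and 0.712 (0.665 to 0.761) in macrophage-like cells. The difference was not tested, since each group is 1 library. The fibroblast-like value rests on the Lrrc15 cluster and is 0.428 without it.

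The unnamed Cd5l cluster of the normal library, which entered no comparison between libraries, held the class II genes at 5269 CPM in sum (4998 to 5551), on 1416 UMIs, against 59.0 CPM and 837 UMIs in all normal fibroblast-like cells. Its 21 cells held 12681 CPM of the 10 fibroblast markers and 15360 CPM of the 10 macrophage markers. Per Cd74 UMI they held 0.388 (0.334 to 0.451) H2-Ab1 UMIs, where normal macrophage-like cells held 0.380.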

How the results depend on the processing

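No paired analysis was possible because each group is 1 library. The tumour to normal ratio of the 8 genes in sum in fibroblast-like cells, 0.856, turned to 1.07 with TMM, 1.08 with median of ratios scaling, 1.06 with looser cell filters and 1.03 without cells holding a macrophage or B cell UMI. It was 0.324 without the Lrrc15 cluster, 0.636 without cells with at least 10 class II UMIs, 0.431 with the Cd5l cluster kept, 0.427 at resolution 1, 0.654 as a mean over cells, 0.556 without cells with any immune marker UMI and 0.724 with doublets kept. H2-Ab1, at 1.35, turned to 0.428 without the Lrrc15 cluster, 0.634 with the Cd5l cluster kept, 0.629 at resolution 1, 0.957 as a mean over cells and 0.655 without immune marker cells. Of the 8 genes 0 were called in fibroblast-like cells, against 1 without the Lrrc15 cluster, 1 at 5 CPM, 1 with doublets kept, 3 with the Cd5l cluster kept and 3 at resolution 1. The ratio of the sum in macrophage-like cells, 0.771, was 0.810 with TMM, 0.828 with median of ratios, 0.726 with looser and 0.815 with stricter filters 0.819 with the class II genes kept in clustering and 0.836 without cells with at least 10 neutrophil marker UMIs. The thinned share of normal fibroblast-like cells, 8.08%, was 19.4% at 5000 UMIs and 30.9% unthinned. That of tumour cells, 4.91%, was 9.58% and 18.4%, 3.59% without the Lrrc15 cluster and 3.22% without immune marker cells. The causes were not tested. The settings that left out the Lrrc15 cluster, the cells with macrophage or B cell UMIs, those with at least 10 class II UMIs, the neutrophil marker cells or the highest pericyte-like cell, or kept the Cd5l cluster, were chosen after seeing the data, as were both scalings for macrophage-like cells. In the Lrrc15 cluster H2-DMb1 stayed between 15.3 and 16.3 CPM over the cell filter, doublet, resolution and clustering gene settings. The tumour B-like sum, 17820 CPM, ran from 11994 with stricter filters to 27246 with the class II genes kept in clustering. Ciita and H2-DMb2 in fibroblast-like cells rest on at most 4 UMIs per library, too few for a direction.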
